A study of Mus musculus with 2 samples.

Results

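The MHC class II genes followed here were the chains H2-Aa, H2-Ab1 and H2-Eb1, the invariant chain Cd74, the peptide exchange factor subunits H2-DMa and H2-DMb1, and the transcriptional coactivator Ciita. They were found by symbol, and 7 of the 15121 genes in the deposited table are described here. The cells were labelled as T cells on day 5 from NILER, a syngeneic mouse melanoma model. It derives from the Nras Q61R melanoma line NIL and was exposed to ultraviolet radiation to raise its mutation load. Both groups carry the same tumour. The untreated group is 1 library and the group treated with the MEK inhibitor Trametinib and the RAF inhibitor BGB-283 is 1 library, made with the same droplet 3′ kit. The age, sex and strain of the animals, and whether animals were pooled, are not given in the sources used here. With 1 library per group there is no spread between animals or libraries, no test was possible, and treatment and library cannot be told apart. Every interval below is a 95% interval and covers counting error only.

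Class II molecules are pairs of an alpha and a beta chain that carry peptides from ingested proteins to CD4 T cells. Cd74 fills the groove of the new pair and guides it to the endosome, cathepsins cut Cd74 down, and the H2-DM pair exchanges the remaining fragment for a peptide. Ciita is the coactivator that switches this gene group on, constitutively in dendritic cells and B cells and through interferon gamma in macrophages and many other cells. Mouse T cells are not known as a main site of class II synthesis, and they can acquire class II protein from presenting cells.

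The genes sit close together in the genome apart from Ciita and Cd74. In the GENCODE annotation of GRCm38, H2-DMa lies at chr17:34119541-34139101, H2-DMb1 at chr17:34153072-34160230, H2-Ab1 at chr17:34257689-34269419, H2-Aa on the minus strand at chr17:34282744-34287823 and H2-Eb1 at chr17:34305867-34316674. Ciita lies at chr16:10480059-10528418. The promoters of H2-Aa and H2-Eb1 are shown because class II genes are known as a group by the boxes in them. Each run is the 130 bases before the RefSeq transcription start (GRCm38.p6), 5′ to 3′ on the strand of the gene, at chr17:34287824-34287953 (minus strand) for H2-Aa and chr17:34305737-34305866 (plus strand) for H2-Eb1. Capitals mark the matches to the motifs named in the next paragraph.
H2-Aa: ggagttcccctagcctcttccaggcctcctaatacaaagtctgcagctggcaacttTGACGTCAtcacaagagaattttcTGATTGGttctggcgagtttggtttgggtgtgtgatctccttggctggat
H2-Eb1: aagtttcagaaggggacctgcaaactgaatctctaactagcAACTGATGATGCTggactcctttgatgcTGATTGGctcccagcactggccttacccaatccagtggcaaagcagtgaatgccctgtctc

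TGATTGG is an inverted CCAAT box, the Y box of class II promoters, bound by the NF-Y factors. It began at position -50 from the start of H2-Aa, at -61 in H2-Eb1 and at -63 in H2-DMb1. AACTGATGATGCT, the longest run that the windows of H2-Eb1 and H2-DMb1 share, began at -89 in H2-Eb1 and at -92 in H2-DMb1. TGACGTCA, the binding sequence of the CREB family, began at -74 in H2-Aa. Of 32851 RefSeq promoter windows of 300 bases, searched on both strands, 7.82% held TGATTGG, 0.00913% held AACTGATGATGCT and 1.79% held TGACGTCA. The 2 windows of H2-DMa held none of these letters. The motifs were chosen after the windows had been read, and a match describes letters and shows no binding.

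Cells were put into classes by their UMIs, that is, by counts of single captured molecules, and no class II gene was used for it. T cells were cells with at least 2 UMIs over Cd3d, Cd3e, Cd3g and Trac, B cells had 3 over a gate list that includes Cd79a, Cd79b and Ms4a1, macrophages had 10 over C1qa, C1qb, C1qc, Csf1r and Adgre1, and dendritic cells had 2 of Xcr1, Cd209a or Fscn1. A cell had to reach exactly 1 class. After filtering, 8671 untreated and 7355 treated cells remained, of which 81.7% and 87.6% were T cells. The untreated and treated counts were 195 and 18 Xcr1 dendritic cells, 42 and 20 Cd209a dendritic cells, 84 and 46 Fscn1 dendritic cells, 124 and 76 macrophages, 10 and 93 B cells, and 7086 and 6442 T cells. A further 813 and 252 cells reached 2 or more classes and were set apart. Of all deposited barcodes, 35 occurred in both libraries. Levels are given as CPM, the UMIs of a gene per 1000000 UMIs of all cells of that class in that library. The 3 chains were also summed, and this sum is called the chain level. A 3′ UMI stands for 1 molecule whatever the length of the transcript, so no length scaling was applied.

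In the untreated library the chain level ran from 359 CPM in T cells over 2520 in Fscn1 dendritic cells, 5455 in macrophages, 8614 in B cells and 11371 in Cd209a dendritic cells to 26495 in Xcr1 dendritic cells. Treated cells gave 54.4 CPM in T cells, 6417 in Fscn1 dendritic cells, 10943 in B cells, 10972 in macrophages, 29648 in Xcr1 and 31646 in Cd209a dendritic cells. The intervals of B cells (10571 to 11325) and macrophages (10746 to 11201) overlapped in the treated library. The intervals of the other neighbours in these orders did not overlap, but they leave out the spread between cells. The quartiles of single treated cells were 14741 and 41437 CPM in Cd209a and 28075 and 32334 CPM in Xcr1 dendritic cells, which overlap. Of these 6 classes, T cells held the lowest level in both libraries and had a lower chain level in the treated than in the untreated library, and the other classes a higher one. T cells were not alone among all gated cells: the NK gate, with 20 and 32 cells, gave 2654 and 115 CPM, 23.2-fold lower in the treated library (16.0 to 34.9), and 1 untreated NK droplet held 288 of the 626 chain UMIs. Neutrophils, 13 and 54 cells, gave 322 and 1096 CPM, with 103 of the 107 treated chain UMIs in 1 droplet.

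**Figure D1:**
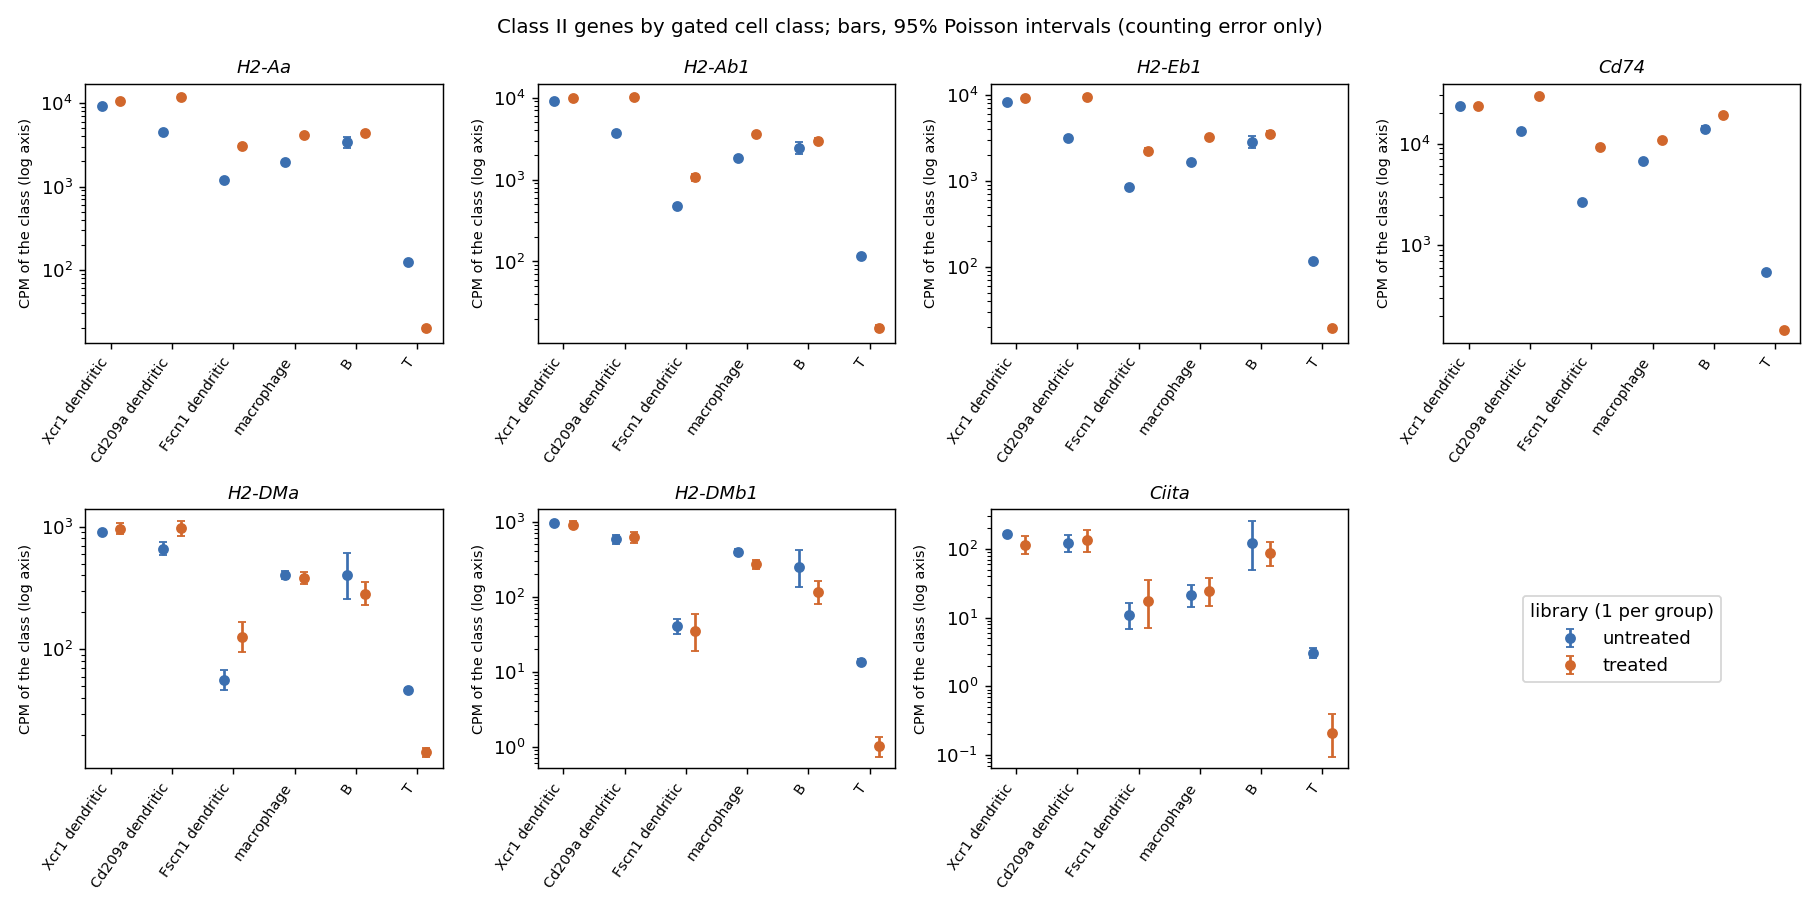
Levels of the 7 genes (CPM of the class, log axis) in 6 gated cell classes, untreated in blue and treated in orange, with 95% Poisson intervals as bars that are shorter than the points where none is seen. T cells are the lowest class in every panel, with H2-Aa at 125 CPM untreated and 19.7 CPM treated, while Xcr1 dendritic cells stand at 9226 and 10521.

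Xcr1 dendritic cells, the type known for presenting antigen of dead cells, carried much class II RNA in both libraries. Their H2-Aa level was 9226 CPM untreated and 10521 CPM treated, H2-Ab1 stood at 9065 and 9989, and H2-Eb1 at 8204 and 9138. The chain level was 1.12-fold higher in the treated library (interval 1.10 to 1.14), a small difference against the distance to other classes. Cd74 stood at 23487 and 23604 CPM (1.00-fold, 0.984 to 1.03). H2-DMa stood at 897 and 964 CPM and H2-DMb1 at 950 and 913, and both intervals of the ratio included 1. Ciita was the one member with a larger difference, 167 against 114 CPM, 1.46-fold lower in the treated library (1.08 to 2.02) from 660 and 45 UMIs. Reads of H2-DMb1 could in part belong to its near-identical neighbour H2-DMb2, so its values are less certain than those of the other members.

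None of the 7 members differed by 1.5-fold or more in Xcr1 dendritic cells, where 17.3% of 5289 genes with enough counts were at least 1.5-fold higher in the treated library and 10.0% at least 1.5-fold lower. The median log2 ratio of the members was 0.10 and that of all these genes 0.11. Single cells had chain levels in overlapping ranges, with a median of 26357 CPM untreated and 30246 CPM treated. The middle of the untreated cells (first to last quartile) held a chain level of 22386 to 29297 CPM and that of the treated cells 28075 to 32334, with no cell under 7985 and 22597. Clec9a, a marker of this type that the gate did not use, had a UMI in 173 of 195 and 17 of 18 cells.

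Macrophages engulf dead cells and present peptides after activation. Their chain level was 5455 CPM untreated and 10972 CPM treated, 2.01-fold higher (1.95 to 2.07). H2-Aa stood at 1958 and 4189 CPM, H2-Ab1 at 1844 and 3557, and H2-Eb1 at 1652 and 3227. Cd74 was 1.60-fold higher, with 6775 and 10868 CPM. The exchange factor was not higher: H2-DMa stood at 403 and 381 CPM (1.06-fold lower, 0.922 to 1.22) and H2-DMb1 at 394 and 268 (1.47-fold lower, 1.25 to 1.72). Ciita was low, with 30 and 20 UMIs (21.1 and 24.4 CPM). Of the 6 members with enough counts, 4 were at least 1.5-fold higher and 0 at least 1.5-fold lower, against 17.5% and 21.0% of 3827 genes. The members' median log2 ratio was 0.81 and that of all genes -0.08.

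The macrophages of each library were a mixed set, which the plot of single cells shows. The median chain level was 1222 CPM in untreated cells, with quartiles at 250 and 6950, and 5272 CPM in treated cells, with quartiles at 259 and 22044. The lower quartiles were thus nearly equal and the upper ones apart. A chain UMI was held by 106 of 124 and 63 of 76 cells. Summed over 12 macrophage markers, the level was 34320 CPM untreated and 53853 CPM treated. The 5 gate genes, which are among these markers, went the other way, with 13841 and 11142 CPM. The gated cells thus also differed in their marker levels. Whether this bears on the class II ratio was not tested.

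**Figure D2:**
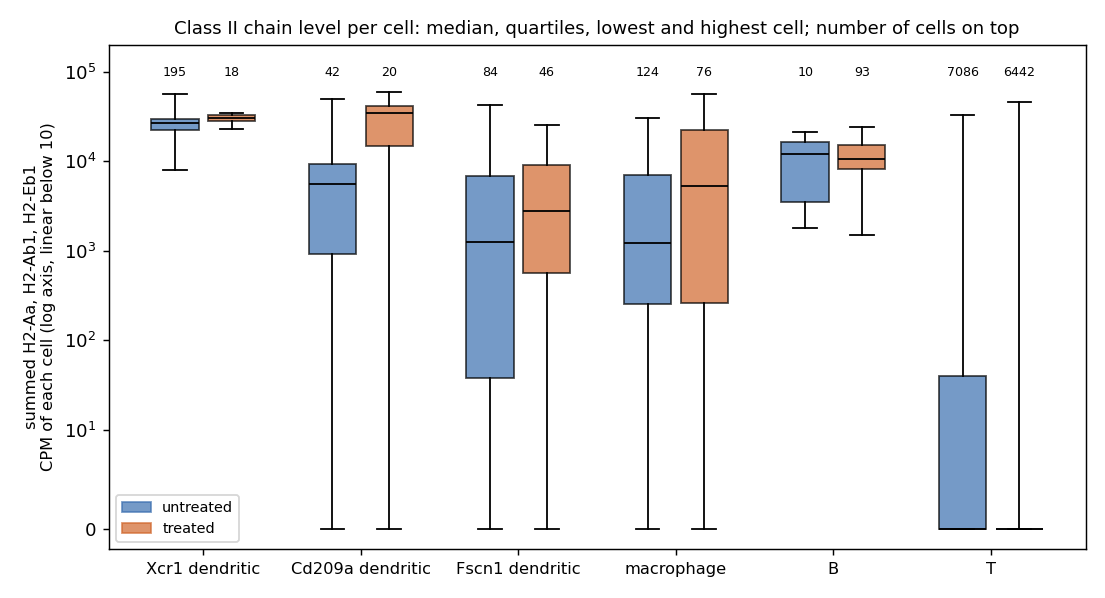
Summed H2-Aa, H2-Ab1 and H2-Eb1 level of each cell (CPM, log axis that is linear below 10) by class and library. Boxes span the quartiles with the median as a line, whiskers reach the lowest and highest cell, and numbers of cells stand on top. Macrophages spread from 0 to 30123 untreated and from 0 to 55717 treated, and the box of treated T cells lies at 0.

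Cd209a dendritic cells had a chain level of 11371 CPM untreated and 31646 CPM treated, 2.78-fold higher (2.68 to 2.89). H2-Aa stood at 4481 and 11988 CPM, H2-Ab1 at 3744 and 10235, H2-Eb1 at 3147 and 9423, and Cd74 at 13272 and 29040. H2-DMa stood at 662 and 969 CPM and H2-DMb1 at 579 and 623. Ciita, with 49 and 30 UMIs, stood at 123 and 135 CPM. Of 6 members with enough counts, 4 were at least 1.5-fold higher, against 12.2% of 1218 genes, and 0 at least 1.5-fold lower, against 28.3%.

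The gate caught different cells in the 2 libraries. Siglech, a marker of plasmacytoid dendritic cells, had a UMI in 35 of 42 untreated and 4 of 20 treated cells, and Tcf4, the regulator of that type, in 41 and 12. Mgl2, a marker of conventional dendritic cells of the Cd209a kind, had one in 16 and 13. Among the cells with 0 Siglech UMIs, 7 untreated and 16 treated, the chain level was 26315 and 36724 CPM and the log2 ratio 0.48 in place of 1.48, which is under 1.5-fold. Clec10a, another marker of the Cd209a kind, had a UMI in 34 of 42 untreated and 15 of 20 treated cells.

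Fscn1 dendritic cells, in which Fscn1 marks a mature, migratory state, had a chain level of 2520 CPM untreated and 6417 CPM treated, 2.55-fold higher (2.43 to 2.67). H2-Aa stood at 1188 and 3103 CPM, H2-Ab1 at 476 and 1066, H2-Eb1 at 855 and 2249, and Cd74 at 2654 and 9286. H2-DMa stood at 56.9 and 127 CPM. H2-DMb1 stood at 40.1 and 34.9 CPM, and Ciita had 23 and 7 UMIs. Of 6 members with enough counts, 5 were at least 1.5-fold higher, against 22.4% of 4854 genes, and 0 at least 1.5-fold lower, against 44.5%. H2-Ab1 was lower than H2-Aa in these cells in both libraries, with 18.9 and 16.6 of 100 chain UMIs, while in Xcr1 dendritic cells it held 34.2 and 33.7.

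This gate was a mixture as well. Sparc, a gene of stromal cells, had a UMI in 29 of 84 untreated and 4 of 46 treated cells, and Ccr7, the homing receptor of mature dendritic cells, in 57 and 43. Where a UMI of Ccl22 or Cacnb3 was asked for as well, 65 and 44 cells were left with 4137 and 6641 CPM, a log2 ratio of 0.68 in place of 1.35. The mean of the cells' own CPM turned the direction, with a log2 ratio of -0.09.

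B cells, which present what their receptor binds, gave a chain level of 8614 CPM in 10 untreated cells and 10943 CPM in 93 treated cells, 1.27-fold higher (1.15 to 1.40). H2-Aa stood at 3389 and 4434 CPM, H2-Ab1 at 2418 and 2980, H2-Eb1 at 2807 and 3529, and Cd74 at 13892 and 18889. H2-DMa stood at 406 and 285 CPM from 23 and 85 UMIs. Each B cell of both libraries held chain UMIs. None of the 5 members with enough counts differed by 1.5-fold, where 42.4% of 752 genes were higher and 10.8% lower. With gate minimums doubled, which left 7 and 85 cells, the log2 ratio turned from 0.35 to -0.11. The median chain level of single B cells was also lower in the treated library, with 11897 and 10563 CPM. The untreated gate also held RNA of plasmacytoid dendritic cells: Siglech had a UMI in 3 of 10 untreated and 0 of 93 treated cells, with 406 CPM untreated, Bst2 stood at 1748 and 50.3 CPM and Ctsl at 724 and 6.70. The part of these cells in the B cell values was not tested.

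T cells carried little class II RNA, and less of it in the treated library. H2-Aa stood at 125 CPM untreated and 19.7 CPM treated, H2-Ab1 at 118 and 15.3, and H2-Eb1 at 116 and 19.3. The chain level was 359 and 54.4 CPM, 6.60-fold lower in treated T cells (6.32 to 6.89). Cd74 stood at 544 and 146 CPM (3.72-fold lower, 3.62 to 3.82) and H2-DMa at 46.7 and 14.6 CPM (3.21-fold lower, 2.94 to 3.51). H2-DMb1 (13.5 and 1.01 CPM) and Ciita (3.06 and 0.207 CPM) stayed below the minimum of 20 CPM, with 716 and 44 UMIs of H2-DMb1 and 162 and 9 UMIs of Ciita.

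Of the 5 members with enough counts in T cells, 5 were at least 1.5-fold lower in the treated library, against 13.9% of 5743 genes, and 0 at least 1.5-fold higher, against 30.0%. Their median log2 ratio was -2.58 and that of all genes 0.16. Class I genes differed less: B2m stood at 2348 and 2936 CPM and H2-K1 at 3050 and 3638, and 0 of 3 class I genes differed by 1.5-fold. The size of the ratio rested on few droplets. Without the single droplet with the most chain UMIs in each library the log2 ratio was -3.34 in place of -2.72, and without all droplets holding 10 or more chain UMIs it was -0.99.

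Class II RNA was spread very unevenly over T cells. Of the untreated T cells, 5259 held 0 chain UMIs, 1151 held 1, 256 held 2, 233 held 3 to 9 and 187 held 10 or more. The treated T cells split into 5693, 533, 96, 100 and 20. The droplets with 10 or more were 2.64% and 0.310% of T cells and held 85.8% and 50.1% of all chain UMIs. The top 1% of T cells, 71 and 65 cells, held 71.2% and 61.3%. In the treated library 1 droplet alone held 37.7%, which is part of both treated shares. For comparison, the top 1% held 5.92% and 4.35% of the UMIs of Cd3e, a subunit of the T cell receptor complex, and 5.90% and 3.94% of those of H2-K1. Cd3e is a gene of the T gate, which in part fixes its spread. The levels were not matched, with Cd3e at 655 and 789 CPM and H2-K1 at 3050 and 3638, above the chain level of 359 and 54.4. A lower level alone raises such a share.

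A UMI of the chains was found in 25.8% of untreated T cells (24.8 to 26.8) and 11.6% of treated T cells (10.9 to 12.4). If the same UMIs had fallen on T cells in proportion to depth, 83.4% and 29.5% of cells would hold one. The treated value includes the UMIs of 1 droplet that held 37.7% of them. Among T cells with no UMI of another class' gate gene, 22.3% and 8.96% held a chain UMI. A spread in proportion to depth would give 59.9% and 12.4% there, so the treated cells came nearer to such a spread. Thinned to 2000 UMIs per cell, which left out 201 and 135 shallower cells, the found shares were 11.8% and 4.84%. Neutrophils, which should hold little class II RNA, served as a reference: 7 of 13 untreated (53.8%, 25.1 to 80.8, median depth 2494 UMIs) and 4 of 54 treated (7.41%, 2.06 to 17.9, median depth 1755.5) held a chain UMI. The median depth of T cells was 5497 and 6056.5 UMIs. The T cell shares lie within the wide neutrophil intervals, which rest on too few cells to show that T cells are at background. Stromal cells, 5 and 8 by their own gate, held a chain UMI in 2 and 1 cells (median depth 30965 and 9226.5 UMIs). The chain level was 11.8 and 8.92 CPM in stromal cells, 322 and 1096 in neutrophils and 359 and 54.4 in T cells. The T cells at 1 or 2 UMIs are not read as cells that express class II genes.

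The members did not concentrate alike. The top 1% of T cells held 73.7% and 69.0% of H2-Aa, 71.0% and 61.6% of H2-Ab1, and 70.8% and 64.4% of H2-Eb1 UMIs. Cd74 was more spread out, with 47.1% and 31.4%. H2-DMa had the lowest shares of these members, with 22.9% and 25.8%. A UMI of H2-DMa was found in 22.3% and 8.12% of T cells, where a spread in proportion to depth would give 26.9% and 9.22%. It was found in 1 of 13 and 0 of 54 neutrophils. The neutrophil intervals of the H2-DMa level, 0.628 to 138 and 0 to 37.8 CPM, include the T cell levels of 46.7 and 14.6 CPM. These neutrophils thus cannot show whether T cells lie above background. The H2-DMa level was 37.8 CPM in untreated T cells with 0 chain UMIs and 209 CPM in those with 10 or more, and 13.4 and 134 CPM in treated ones.

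**Figure D3:**
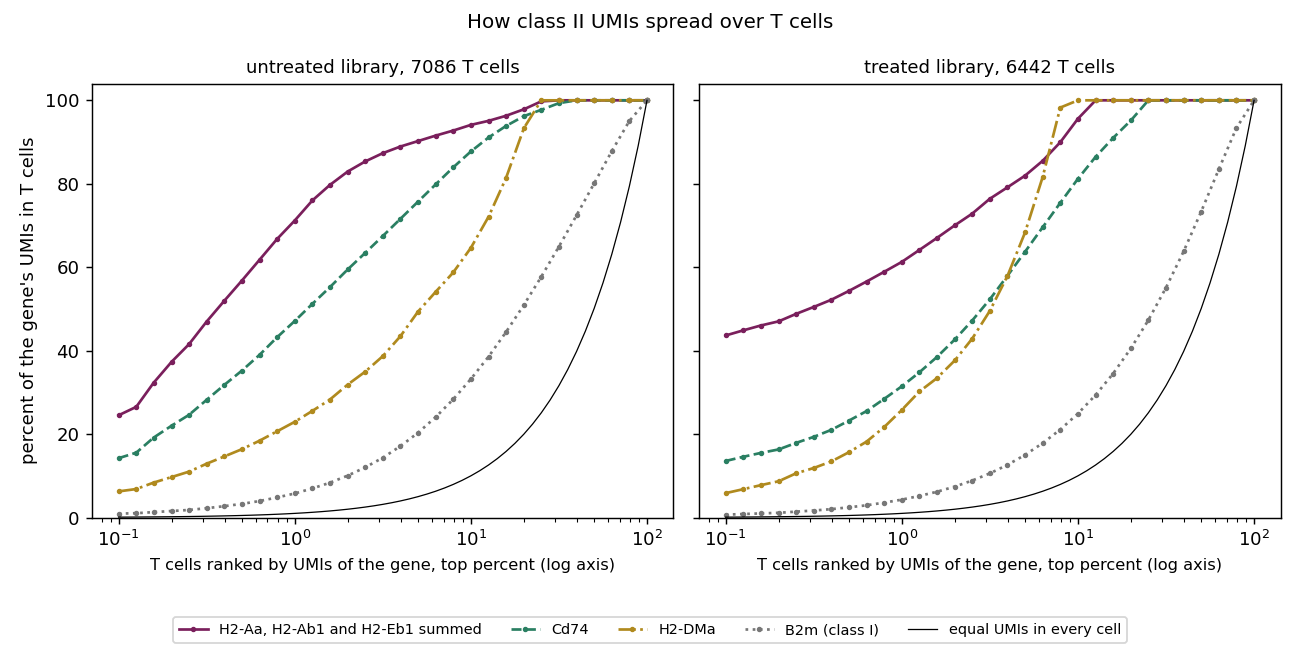
Share of all T cell UMIs of a gene (percent) held by the top percent of T cells ranked by that gene (log axis), with one panel per library. In the top 1% of cells the summed chains hold the most, 71.2% and 61.3% of UMIs, and Cd74, H2-DMa and B2m less. The H2-DMa line crosses that of the chains in the treated panel and reaches 100% by the top 10.0% of cells, where the chains hold 95.59%, and the thin black line marks equal UMIs in every cell.

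A UMI of another class' gate gene was present in 23.0% of untreated T cells at 0 chain UMIs, 30.8% at 1 to 2, 53.6% at 3 to 9 and 55.6% at 10 or more. In treated T cells these shares were 14.9%, 29.9%, 68.0% and 80.0%. The level of 12 macrophage markers in T cells was 96.1 CPM at 0 chain UMIs and 1295 CPM at 10 or more untreated, and 74.3 and 1501 CPM treated. The other marker lists differed less between these bins and not always in the same direction. The Xcr1 dendritic list went from 199 to 674 CPM untreated and from 355 to 252 treated. The Cd209a list stood at 362 and 482 CPM untreated and 852 and 911 treated, the Fscn1 list at 471 and 621 and at 345 and 718, and the B list at 241 and 286 and at 131 and 311. NK cells, with 0 Xcr1 UMIs, gave 1543 and 1257 CPM of the Xcr1 list. A UMI of the Fscn1 list was found in 81.6% and 76.1% of T cells, and Ccr7, a gene of that list, in 52.3% and 16.9%. The dendritic lists thus cannot tell dendritic RNA from other RNA in T cell droplets. Over all T cells the macrophage list stood at 198 and 142 CPM, with none of its 12 genes at 0, and the macrophage gate genes at 44.5 and 25.8 CPM. Xcr1 stood at 0.491 and 0.622 CPM, Cd209a at 0.113 and 0.0461, and Fscn1 at 1.06 and 3.18. The median depth was 14778 UMIs in the 187 untreated droplets at 10 or more and 5120 in those at 0.

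The droplet with the most chain UMIs held 835 in the untreated library (4.40% of the T cell total) and 889 in the treated library (37.7%). Its total was 73356 and 19280 UMIs, with 218 and 32 T gate UMIs, 3 and 3 macrophage gate UMIs, 0 and 1 B gate UMIs and no UMI of Xcr1, Cd209a or Fscn1. It was not free of other marker RNA, with 28 and 10 UMIs of the macrophage list and 71 and 48 of the Cd209a list. The Cd209a list stood at 386 and 833 CPM over all T cells, so it cannot by itself show dendritic RNA in this droplet. Flt3, a pan dendritic marker, had 0 and 2 UMIs in this droplet, of 39 and 7 in all T cells. The next treated droplet held 33 chain UMIs. The T cells with 0 UMIs of all other gate genes, 5215 and 5324 cells, had a chain level of 171 and 20.7 CPM, a log2 ratio of -3.04. Their share with a chain UMI was 22.3% and 8.96%, and their top 1% held 66.0% and 36.8% of chain UMIs. The lower level in treated T cells was thus also found without cells that hold such UMIs. The part that RNA of other cells, or the smaller number of Xcr1 dendritic cells in the treated library (195 and 18), has in the chain level of T cells was not tested.

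Cd74 and the chains were also read in T cell subsets, among them regulatory T cells, here T cells with a UMI of Foxp3, their master regulator. There were 665 untreated and 512 treated ones. Their Cd74 level was 1433 CPM untreated and 670 CPM treated, 2.14-fold lower (2.05 to 2.23), and 82.7% and 82.2% of them held a Cd74 UMI. Their chain level was 727 and 68.6 CPM, 10.6-fold lower (9.39 to 12.0), with a chain UMI in 46.5% and 24.4%. In CD8 T cells, 4227 and 4793 cells, Cd74 stood at 361 and 76.3 CPM and was found in 30.0% and 18.8% of cells. CD4 T cells without Foxp3, 905 and 475 cells, stood between, with 670 and 248 CPM and 32.2% and 30.1%. The chain level was 265 and 54.3 CPM in CD8 and 390 and 43.9 CPM in CD4 T cells, 4.87-fold and 8.88-fold lower. Cd74 was 4.73-fold and 2.70-fold lower there. In other T cells, those in none of these subsets, Cd74 was 4.15-fold and the chain level 11.7-fold lower. The smaller difference of Cd74 was thus not particular to regulatory T cells. Over the cells with no UMI of another class' gate gene the chain level was 341 and 56.3 CPM in regulatory T cells (6.06-fold lower, 5.14 to 7.19), 151 and 14.8 in CD8 (10.2-fold lower, 9.21 to 11.3) and 102 and 42.1 in CD4 (2.42-fold lower, 1.90 to 3.11). The order of these chain folds over the subsets thus differed with and without those cells. Neutrophils, 13 and 54 cells, held Cd74 in 30.8% and 24.1% (9.09 to 61.4 and 13.5 to 37.6). The shares of CD8 and CD4 T cells lie within these wide intervals and those of regulatory T cells above them. Thinned to 2000 UMIs, Cd74 was found in 67.3% and 61.4% of regulatory, 22.8% and 19.7% of CD4 and 14.6% and 8.09% of CD8 T cells.

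The same order held in T cells that had 0 chain UMIs. Cd74 stood there at 679 CPM untreated and 559 CPM treated in regulatory T cells (356 and 387 cells), at 199 and 178 in CD4 and at 86.7 and 40.1 in CD8 T cells. The Cd74 level of regulatory T cells was thus the highest of the subsets in both libraries, and without the cells with chain UMIs it was 1.21-fold lower in the treated library (1.13 to 1.30), against 2.14-fold with them. H2-DMa in these cells stood at 44.7 and 41.0 CPM in regulatory T cells, with overlapping intervals (36.9 to 53.7 and 33.8 to 49.3), and at 36.2 and 10.2 CPM in CD8 T cells. A Foxp3 UMI is found more readily in deep cells, and the median depth of all regulatory T cells was 6193 and 5846.5 UMIs.

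**Figure D4:**
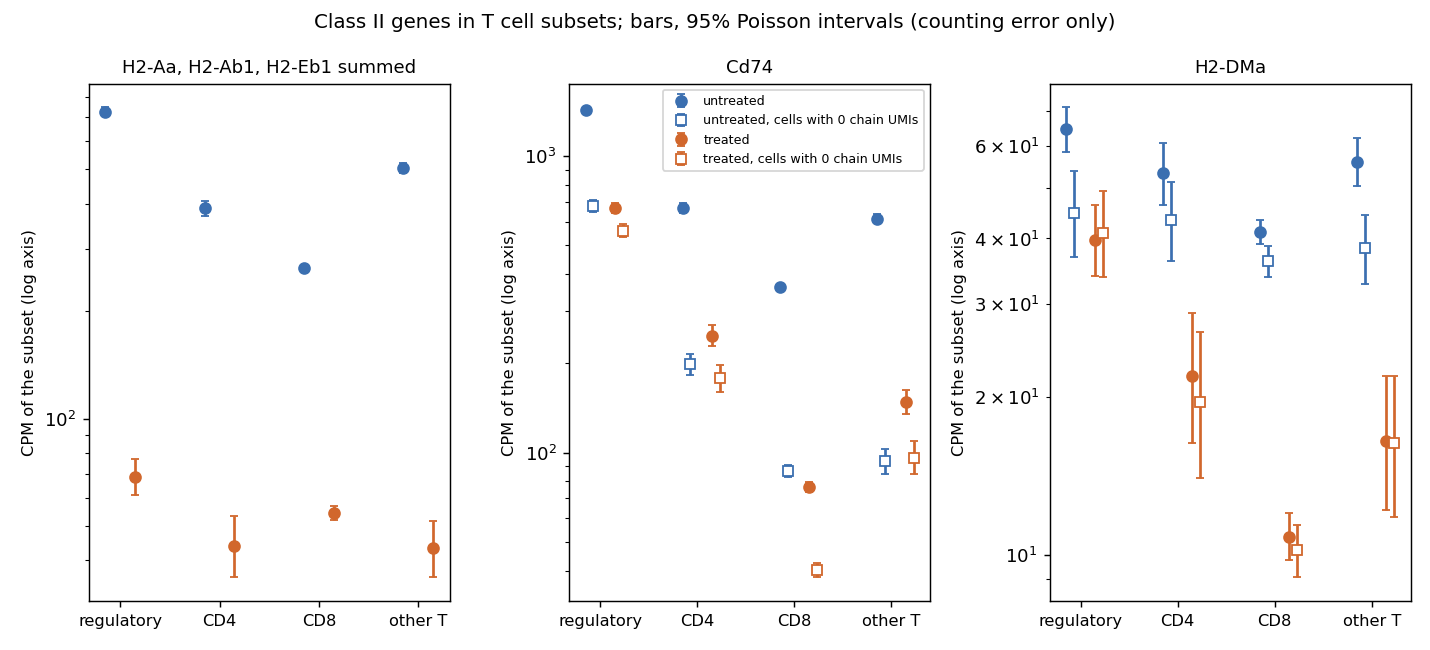
Chain, Cd74 and H2-DMa levels (CPM of the subset, log axes) in regulatory, CD4, CD8 and other T cells, with 95% Poisson intervals. Filled circles are all cells of a subset and open squares those with 0 chain UMIs. Regulatory T cells have the highest Cd74 level in both libraries, 1433 and 670 CPM, and 679 and 559 CPM without chain UMIs.

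The members stood in different ratios to each other in the classes. Per 100 chain UMIs, Xcr1 dendritic cells held 88.6 and 79.6 UMIs of Cd74, macrophages 124 and 99.1 and B cells 161 and 173. T cells held 152 and 269. Of their subsets, regulatory T cells held 197 and 976, CD4 172 and 565, other T cells 122 and 344 and CD8 136 and 141. H2-DMa stood at 3.39 and 3.25 per 100 chain UMIs in Xcr1 dendritic cells, 7.40 and 3.47 in macrophages and 13.0 and 26.8 in T cells. H2-DMb1, the partner of H2-DMa, stood at 3.59 and 3.08, at 7.22 and 2.45 and at 3.77 and 1.86. The 3 chains themselves varied less, with H2-Aa at 34.8 to 38.2 of 100 chain UMIs in Xcr1 dendritic cells, macrophages and all T cells, at 39.3 and 40.5 in B cells and at 47.2 and 48.4 in Fscn1 dendritic cells. Treated regulatory T cells held 21.7 of H2-Aa and 50.2 of H2-Eb1, from 281 chain UMIs.

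Other genes of the class II pathway were read from a list of 17, of which 16 were in the table. In T cells 8 had enough counts, and 2 were at least 1.5-fold higher and 3 at least 1.5-fold lower in the treated library, where 30.0% of all genes tested were higher and 13.9% lower. Lower were Ctss, the cathepsin that trims Cd74, with 165 and 82.3 CPM, H2-Oa, a subunit of the H2-DM inhibitor, with 24.9 and 12.8, and Cd83, which stabilises class II at the surface, with 30.5 and 16.7. Higher were the promoter factors Rfxap, with 47.8 and 85.3 CPM, and Creb1, with 47.3 and 77.1. Ctss is also abundant in macrophages, with 2780 and 4445 CPM there.

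In macrophages 5 of the 16 had enough counts, and Ctss and Ctsl, both cathepsins, were at least 1.5-fold higher, Ctsl with 752 and 1298 CPM, and 0 were lower. Of the interferon gamma route to Ciita, 3 of 5 genes were higher in macrophages. Of all genes tested there, 17.5% were higher and 21.0% lower. Among the 3 higher genes of this route were the receptor Ifngr1 with 185 and 296 CPM and the factor Irf1 with 52.7 and 160. Class I genes were higher there too, with H2-K1 at 1525 and 2783 and H2-D1 at 1844 and 3516 CPM. In T cells the same route gave 1 of 6 higher, Jak2 with 32.0 and 72.1 CPM, and 1 lower, Ifngr2 with 20.2 and 8.02. Of all genes tested in T cells, 30.0% were higher and 13.9% lower. Irf1 stood at 90.6 and 122 CPM in T cells.

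In Xcr1 dendritic cells 12 pathway genes had enough counts, with 1 higher and 4 lower, Cd83 among the lower at 708 and 445 CPM, where 17.3% of all genes tested were higher and 10.0% lower. No gene of the interferon gamma route differed by 1.5-fold there. In Fscn1 dendritic cells, the gate with stromal RNA in it, 7 of 11 pathway genes were higher and 3 lower, where 22.4% of all genes tested were higher and 44.5% lower. Lgmn, an endosomal protease, stood at 116 and 396 CPM and Ctsl at 1439 and 14.9, and 6 of 6 costimulatory ligands were higher, Cd40 with 102 and 493 and Cd80 with 48.3 and 229 CPM. In Cd209a dendritic cells 1 of 6 pathway genes was higher, Cd83 with 95.3 and 372 CPM, and 2 were lower, against 12.2% and 28.3% of all genes tested. In B cells 3 of 5 were lower, against 10.8%, Ctss with 671 and 278 CPM the farthest.

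Outside the members, the genes whose pattern over the 6 classes in 2 libraries was most like the chain level were Cd2ap, Plekho1, Spi1, Snap23 and Skap2. Likeness was Pearson's r of log2(CPM + 10) over these 12 points, which share libraries, and 5845 genes were compared. The r was 0.92 for Cd2ap and 0.88 for Skap2. Spi1, a transcription factor of myeloid and B cells, stood at 589 and 483 CPM in Xcr1 dendritic cells and 15.7 and 2.03 CPM in T cells. Among the members r with the chain level was 0.99 for Cd74, 0.93 for H2-DMa, 0.89 for H2-DMb1 and 0.86 for Ciita. These values describe the points and were given no test.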

How the data were processed

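The labels name cells called T cells and a droplet 3′ kit. Cell Ranger, Seurat and the build GRCh38 (although the symbols are those of mouse) appear in the submitters' processing notes, and versions are not given in the sources used here. Values in the table that the authors deposited are natural log values, ln(1 + x), where x is a gene's UMIs scaled to 10000 in its cell. The suffix of the cell names gave the library. Division by the smallest back-transformed value in a cell left 38204229 of 38204229 nonzero entries within 0.01 of a whole number, and these recovered UMIs were used in place of log values. Deposited cells held 95349992 UMIs untreated and 58318786 treated, with medians of 6155 and 5987.5.

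Cells with under 200 genes or over 10% mitochondrial UMIs were left out (216 and 358). Scrublet's own threshold found 0.033% and 0.013% doublets and was judged to have failed, so the highest 5% of its scores per library were removed (425 and 365 cells). A gene entered a comparison with 50 UMIs and 20 CPM in either library, and 1.5-fold counted as a difference. Intervals are exact Poisson, conditional binomial for ratios and Clopper-Pearson for shares, and leave out variation between animals. The Poisson and ratio intervals also leave out the spread between cells. Sequences are from RefSeq and positions from GENCODE, both of GRCm38. The ratio and its interval were tested on simulated independent Poisson counts at the T cell totals. All of 200 genes changed 1.5-fold were recovered (100.0%), and 95.3% of unchanged genes had an interval that included 1. The simulation did not gather UMIs in few cells, so it does not speak to the chain intervals in T cells. Alternatives covered doublets, cell filter, gates, exclusion, denominator, summary, thinning, minimum, fold and single droplets.

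The 7 members, the gates and the gene lists were chosen with earlier results of these data known. Named were the members, list genes with the 2 highest or lowest ratios in a class, Ctss, Irf1, B2m and H2-K1, the 5 genes most like the chain sum, and gate and marker genes. Other genes (Siglech, Tcf4, and Rfxap, Creb1, Cd83, H2-Oa, Jak2, Ifngr1, Ifngr2 or H2-D1 where outside that rule) were named after their values were seen. A few gate and list genes are not reported here. The melanocytic marker list held 2 measured genes, summing to 0.907 and 1.06 CPM in T cells. Tools were Python 3.11.15, numpy 2.4.6, scipy 1.17.1, scanpy 1.11.5 with its Scrublet, and matplotlib 3.10.9.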

Additional observations from a re-analysis of the deposited data

Results flagged for a closer look

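Of the 6 classes compared, the chain level was higher in the treated library in 5 and lower in T cells, an opposite direction that was not tested because each group is 1 library. The log2 ratio of treated over untreated was 0.16 in Xcr1 dendritic cells, 1.48 in Cd209a dendritic cells, 1.35 in Fscn1 dendritic cells, 1.01 in macrophages and 0.35 in B cells, against -2.72 in T cells. The Cd209a gate caught different cells in the 2 libraries, with a Siglech UMI in 35 of 42 untreated and 4 of 20 treated cells. Among its cells with 0 Siglech UMIs the ratio was under 1.5-fold. The Fscn1 and B cell directions turned under 1 alternative each, and the median of single B cells was lower in the treated library (11897 and 10563 CPM). The NK gate, with 20 and 32 cells, also had a lower chain level in the treated library, 2654 and 115 CPM with a log2 ratio of -4.53, so the lower direction was not found in T cells alone.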

How the results depend on the processing

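All values in this paragraph are log2 ratios of the chain level, treated over untreated, unless named otherwise, and where a value moved the cause was not tested. In T cells the ratio was -2.52 without doublet removal, -2.48 in all deposited cells, -2.90 at 5% mitochondrial UMIs, -1.84 with gate minimums doubled, -3.04 with 0 UMIs of other gate genes, -1.54 with no exclusion by other classes, -2.85 without ribosomal and mitochondrial genes in the total, -2.26 as a mean of the cells' CPM, -3.34 without the top droplet and -0.99 without droplets at 10 or more chain UMIs. It kept its direction under these 10. In Xcr1 dendritic cells it was 0.12 without ribosomal and mitochondrial genes. In Cd209a dendritic cells it was 0.74 (5% mitochondrial UMIs), 1.06 (gates doubled), 1.61 (companion gene), 1.58 (without the top droplet), 0.48 (0 Siglech UMIs, with H2-DMa at -0.10) and 1.80 (mean CPM). In Fscn1 dendritic cells it was 1.5 (no doublet removal), 0.68 (5% mitochondrial UMIs), 1.49 (all cells), 1.67 (gates doubled), 1.16 (no ribosomal and mitochondrial genes), 0.68 (companion gene) and -0.09 (mean CPM, with H2-Aa at -0.01, H2-Ab1 at -0.28, H2-Eb1 at -0.10 and H2-DMa at -0.23). In macrophages it was 0.93, 0.74, 0.95, 1.34, 0.91 and 1.33 without doublet removal, at 5% mitochondrial UMIs, in all cells, with gates doubled, without ribosomal and mitochondrial genes and as mean CPM. In B cells it was 0.54 (all cells), -0.11 (gates doubled, with H2-Ab1 at -0.21 and H2-Eb1 at -0.15), 0.50 (without the top droplet) and 0.06 (mean CPM, with H2-Eb1 at -0.01).

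The thinned share of untreated T cells with a chain UMI was 12.7% at 5% mitochondrial UMIs, 10.1% with 0 UMIs of other gate genes, 16.3% without exclusion and 7.37% at 1000 UMIs. In treated T cells it was 3.39%, 6.24% and 2.78% under the last 3 of these. The top 1% of untreated T cells held 69.7% of chain UMIs without doublet removal, 68.6% at 5% mitochondrial UMIs, 69.8% in all cells, 70.0% with gates doubled, 66.0% with 0 other gate UMIs, 51.7% without exclusion and 70.2% without the top droplet, and the top 5% held 90.2%. In treated T cells these were 66.6%, 63.4%, 66.8%, 79.4%, 36.8%, 91.3%, 38.1% and 81.9%.

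At a minimum of 10 UMIs and no CPM minimum, the genes called higher and lower numbered 1871 and 1867 in Xcr1, 948 and 1636 in Cd209a, 2271 and 4082 in Fscn1 dendritic cells, 1839 and 1924 in macrophages, 1791 and 647 in B cells and 3656 and 2844 in T cells. At 2-fold they numbered 240 and 239, 69 and 192 and, in Fscn1 dendritic cells, 691 higher, 308 and 301 in macrophages, 32 lower in B cells and 825 and 272 in T cells. With the main settings they were 914 and 531, 148 and 345, 1088 and 2160, 668 and 803, 319 and 81, and 1724 and 801.

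The droplet and Siglech alternatives were chosen after seeing the data. With log2(CPM + 1), Fgd2 replaced Skap2 among the genes most like the chain level. No paired analysis was possible because each group is 1 library. Depth limits Ciita and H2-DMb1 in T cells and each class with under 50 cells.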
